A study of Homo sapiens with 8 samples.

Results

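Transcripts of S100 genes were followed in HAP1 cells that had lost BCDIN3D and in their wild-type counterparts. The S100 genes taken were the 8 symbols S100A1, S100A2, S100A4, S100A6, S100A10, S100A11, S100A13 and S100A16, out of 57996 gene symbols with a count in each RNA-seq library. They were selected on measured values. These were the decrease of the S100A6 count in knockout against wild type, set beside the counts of its 1q21 neighbours. Every knockout-to-wild-type value of these 8 genes and of the neighbours is therefore a description, and nothing is read from calls counted among them. HAP1 is an adherent, near-haploid human line obtained from a chronic myelogenous leukaemia. The knockout group was a single clone, BCDIN3D KO clone 11, and the other group was WT, so an effect of losing BCDIN3D and a trait of that clone cannot be told apart. Both groups were grown for 48 h in IMDM with 10% FBS and PSQ, and each had 2 total RNA libraries, 1 dated 6 May and 1 dated 9 May in its title. The series describes them as biological replicates without saying how the cultures were kept apart, so p-values here reflect only library-to-library spread, part of which may be technical. The 4 small RNA libraries of the same RNA were not used here.

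S100 proteins are small proteins with a pair of EF-hands, the helix-loop-helix motif that binds calcium. Most form dimers, open a hydrophobic face when calcium binds, and then dock onto target proteins such as annexins, myosins or p53. Several are also released from cells and bind the receptor RAGE. Most S100 genes sit together on the long arm of chromosome 1 within the epidermal differentiation complex, a region rich in genes used by skin cells, and each has its own promoter.

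The knockout libraries held 21416336 and 20065041 counts, and the wild-type libraries 20728819 and 24415272. BCDIN3D, a methyltransferase of RNA 5′ ends, stood at 1.56 and 2.71 CPM (counts scaled to a common library total) in knockout, against 7.40 and 4.90 CPM in wild type. Its log2 fold change was -1.52 ± 0.24 (SE), with an adjusted p of 2.06e-05 in edgeR, and reads of it therefore remained in the knockout clone. Of 10 blood cell markers 2 were at 0 in every library and 9 averaged under 1 CPM, although HAP1 comes from a leukaemia. PTPRC, which encodes the pan-leukocyte antigen CD45, had 1 count over the knockout libraries and 4 over the wild-type libraries. The summed level of the 10 blood markers was 0.946 and 1.66 CPM in knockout and 11.1 and 11.8 CPM in wild type, nearly all of it from KIT. Of these 10 genes 1, KIT, was lower and 0 higher in edgeR (-3.30 in log2 fold change), beside 3.5% and 3.06% of all tested genes. The 5 epithelial markers summed to 61.7 and 52.4 CPM in knockout and 82.5 and 75.6 CPM in wild type, with CDH1, the E-cadherin gene, at 1 count in each group. Of these 5 genes 4 were lower and 0 higher in edgeR (EPCAM at -2.29, KRT8 at -1.08, ESRP1 at -0.94 and KRT18 at -0.28 in log2 fold change), beside 3.5% and 3.06% of all tested genes. The 5 mesenchymal markers summed to 562 to 585 CPM in knockout and 501 to 513 CPM in wild type, with 1 of the 5 higher and 0 lower in edgeR. The part of these marker differences in the S100A6 result was not tested. Of 6 keratinocyte markers 5 averaged under 1 CPM, and the other, KRT10, had 8.93 CPM in knockout and 9.68 CPM in wild type. KRT5 was at 0 in knockout and in wild-type replicate 2, with 3 counts in wild-type replicate 1. The cornified envelope genes IVL and LOR were at 0 in every library.

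The S100A6 gene (chromosome 1, 153534599 to 153535991, GRCh38) is transcribed from the minus strand. The start of S100A4 lies 9.82 kb from that of S100A6, and the start of S100A10 lies 1542 kb away on the other side. The 250 bases before the annotated start of these genes are shown. The 3 promoters belong to the gene that fell, to its nearest tested neighbour and to the family member with the most counts. They are RefSeq sequences of GRCh38.p14, on the minus strand, at chr1:153535992-153536241 for S100A6, chr1:153545807-153546056 for S100A4 and chr1:151993860-151994109 for S100A10. Capitals mark CpG, the dinucleotide at which human DNA can be methylated.
S100A6: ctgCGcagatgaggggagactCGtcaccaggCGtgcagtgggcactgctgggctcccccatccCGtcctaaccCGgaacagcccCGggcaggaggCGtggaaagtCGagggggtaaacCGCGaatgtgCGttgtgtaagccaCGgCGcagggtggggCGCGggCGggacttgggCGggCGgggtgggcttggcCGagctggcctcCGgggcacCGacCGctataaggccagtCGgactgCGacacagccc
S100A4: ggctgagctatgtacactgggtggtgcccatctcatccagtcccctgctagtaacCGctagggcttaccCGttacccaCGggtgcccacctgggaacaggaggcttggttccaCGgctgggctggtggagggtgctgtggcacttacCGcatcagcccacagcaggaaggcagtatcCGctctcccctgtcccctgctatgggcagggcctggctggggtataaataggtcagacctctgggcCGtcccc
S100A10: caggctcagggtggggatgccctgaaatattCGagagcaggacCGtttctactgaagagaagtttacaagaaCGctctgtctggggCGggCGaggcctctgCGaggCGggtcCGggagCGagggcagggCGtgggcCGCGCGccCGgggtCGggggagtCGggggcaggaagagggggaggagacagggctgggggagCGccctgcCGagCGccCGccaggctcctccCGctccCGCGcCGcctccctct
The S100A6 promoter held 24 CpG sites and so did the S100A10 promoter, while the S100A4 promoter held 7. Over 35116 promoter windows of the same length the median was 11, and 23.7% had at least 24. GC content was 70.0% for S100A6, 71.2% for S100A10 and 62.8% for S100A4. S100A6 and S100A10 thus had promoters of like CpG density, and methylation itself was not measured.

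All 8 genes had a promoter window in the RefSeq table, and S100A2, S100A13 and S100A16 had more than 1. The windows of S100A11 and S100A13 held between 8 and 15 CpG sites, and those of S100A1, S100A2 and S100A16 between 1 and 6. Both strands were searched for 5 motifs. The GC box GGGCGG, the core of SP1 sites, occurred 3 times before S100A6, with first bases 90, 79 and 75 bases before the start, the last pair overlapping. It occurred once before S100A10 and S100A11 and in 1 window each of S100A13 and S100A16, and not before S100A4. Of all windows 42.6% held it. The TATA box TATAAA was found 31 bases before the start of S100A4 and 29 before that of 1 S100A13 window, and in 10.7% of all windows. Only exact matches were counted, so the tataag near the end of the S100A6 window was not. The AP-1 motif TGANTCA (6.57% of windows) occurred before S100A2 alone of the 8, the antioxidant response element TGACNNNGC (10.9%) before S100A13 alone, and the E-box CACGTG (6.34%) before none. A match describes letters in these windows and is no evidence of binding.

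S100A6 encodes calcyclin, an S100 protein named for its link to the cell cycle, which binds the calcyclin-binding protein CACYBP. It had 21 and 22 counts in the knockout libraries, against 465 and 587 in the wild-type libraries. In CPM these were 0.993 and 1.11 in knockout and 22.3 and 23.8 in wild type. Both knockout libraries lay far below both wild-type libraries, and within each group the libraries were close. The mean was 1.05 ± 0.0799 CPM in knockout and 23.1 ± 1.01 CPM in wild type (SD, n = 2 each), so the knockout mean was 4.55% of that in wild type. The log2 fold change was -4.45 ± 0.19 (SE), or 21.9-fold lower in knockout. Taken date by date it was -4.49 for the first date and -4.43 for the second. In bulk RNA, fewer cells that express S100A6 and less S100A6 RNA per cell cannot be told apart.

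**Figure D1:**
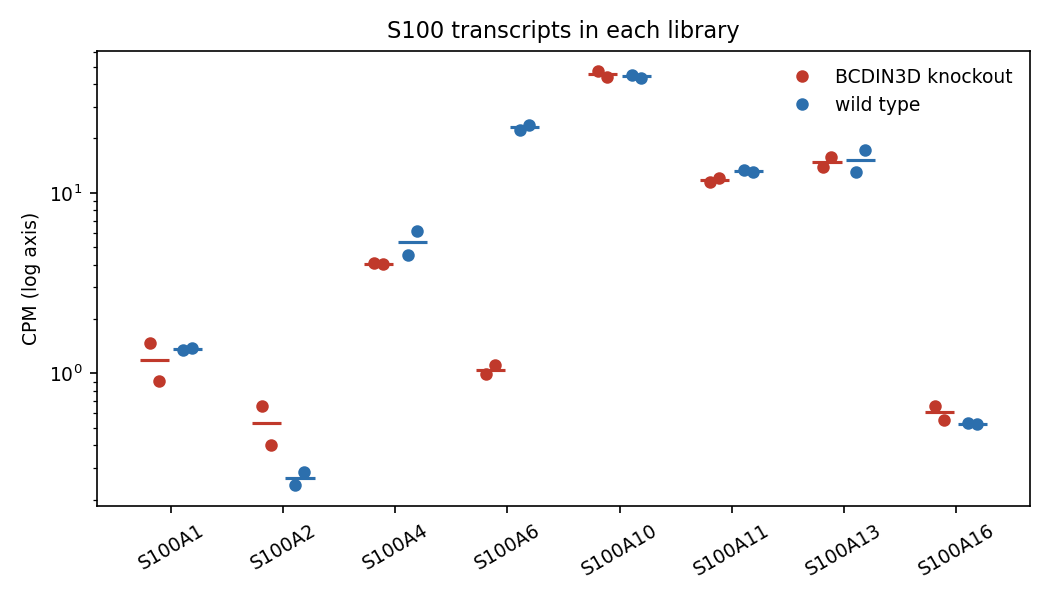
Level of each S100 transcript in CPM on a log axis, with knockout libraries in red left of wild-type libraries in blue; points are single libraries and bars are the means of 2. S100A6 sits near 1 CPM in knockout and between 22.3 and 23.8 CPM in wild type, while the points of S100A10, S100A11 and S100A13 lie side by side.

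The other members that interact with annexins were counted at nearly the same level in both groups. S100A10, also called p11, is the light chain of the annexin A2 heterotetramer and is unusual among S100 proteins because its EF-hands no longer bind calcium. It had 47.0 and 43.8 CPM in knockout, against 44.9 and 43.2 CPM in wild type. The groups overlapped, and the log2 fold change was 0.04 ± 0.08 (SE). S100A11, a partner of annexin A1, had 242 and 239 counts in knockout, against 279 and 321 in wild type, or 11.7 ± 0.404 CPM in knockout and 13.2 ± 0.290 CPM in wild type (SD, n = 2 each). Both knockout CPM values lay below both wild-type values, with a log2 fold change of -0.17 ± 0.13. S100A11 has processed pseudogenes elsewhere in the genome. The 2 that were counted by name, S100A11P1 and S100A11P2, held 1 read between them over the 4 libraries.

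S100A4, known as metastasin, binds the heavy chain of non-muscle myosin IIA and is the nearest tested neighbour of S100A6. It had 4.07 and 4.02 CPM in knockout, against 4.52 and 6.16 CPM in wild type. Its groups did not overlap, but the wild-type libraries differed from each other by more than the lower of them differed from knockout. The log2 fold change was -0.41 ± 0.20. It was -0.61 without wild-type replicate 1 and -0.16 without wild-type replicate 2. Without knockout replicate 1 it was -0.42, and without knockout replicate 2 it was -0.40. S100A4 shares part of its annotated span with S100A5, which had 0 counts in knockout and 1 in wild type. The decrease of S100A6 was thus far larger than that of S100A4, and S100A5 had too few counts to compare.

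S100A13, which takes part in the export of FGF1 by a route outside the secretory pathway, had 13.9 and 15.8 CPM in knockout, against 13.1 and 17.2 CPM in wild type. Its knockout values lay within the wild-type range, with a log2 fold change of -0.03 ± 0.13. That value was -0.21 without wild-type replicate 1 and 0.18 without wild-type replicate 2. S100A13 overlaps the annotated spans of S100A1 and CHTOP, and the strand setting of the counting is not given in the sources used here, so reads in the overlap may be assigned to either gene or dropped.

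The remaining members had few counts. S100A1, which is abundant in heart muscle and acts on ryanodine receptors, had 31 and 18 counts in knockout and 28 and 34 in wild type. Its log2 fold change was -0.19 ± 0.35, with -0.59 without knockout replicate 1 and 0.11 without knockout replicate 2. S100A16, a broadly expressed member, had 14 and 11 counts in knockout and 11 and 13 in wild type, with a log2 fold change of 0.20 ± 0.50. S100A2, a binding partner of p53 that is best known from basal epithelial cells, had 14 and 8 counts in knockout and 5 and 7 in wild type. Its groups did not overlap, and it did not pass the filter on low counts. Without that filter its log2 fold change was 1.01 ± 0.65, the only member above 1, from a sum of 22 counts in knockout and 12 in wild type. At this depth no difference was detectable for these 3 genes.

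Of the 8 members 7 passed the filter, and 1 of them, S100A6, was past an adjusted p of 0.05 in edgeR. Over all 16233 tested genes 6.56% were past it, and 3.5% in the direction of lower levels. Since S100A6 was picked for this contrast, nothing is read from that count. The groups did not overlap for 4 of the 7, with S100A4, S100A6 and S100A11 lower and S100A16 higher, against 45.3% of all tested genes, so a separation of 2 libraries from 2 was common in these data. The log2 fold changes of the 6 others ran between -0.41 and 0.20 with a median of -0.10, beside a median of 0.00 over all tested genes.

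Ratios within a library need no scaling between libraries. The count of S100A6 over that of S100A10 was 0.0211 and 0.0253 in knockout, against 0.498 and 0.550 in wild type. Reads of S100A6 made up 1.24% (95% Wilson interval 0.812 to 1.89) and 1.41% (0.931 to 2.12) of the reads of the 8 genes in knockout. In wild type they made up 22.3% (20.5 to 24.1) and 22.5% (20.97 to 24.2). The intervals cover counting error only. Counts were not divided by transcript length, so these are shares of reads and do not rank the genes by transcript number. The summed level of the 8 genes was 80.2 and 78.6 CPM in knockout and 100.4 and 105 CPM in wild type. Without S100A6 the sums were 79.2 and 77.5 CPM in knockout and 78.0 and 81.7 CPM in wild type, so the groups overlapped once S100A6 was set aside.

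Other S100 genes were close to silent in these cells. Of 13 further S100 genes 4 had no count in any library, 7 had 1 to 3 counts over the 4 libraries, and none passed the filter. A count of 0 allows up to 0.121 to 0.151 CPM in a single library (3 counts). Most often counted was S100P, named after placenta, with 4 and 7 counts in knockout and 4 and 7 in wild type. S100A14 had 1 and 1 counts in knockout and 2 and 0 in wild type. S100A8 and S100A9, the calprotectin subunits of neutrophils, had 1 count each, in a knockout library. S100A3 had 1 count in a knockout and 1 in a wild-type library, S100G had 1 in knockout, and S100A5, S100A12 and S100B had 1 in wild type. S100A3 and S100A5 lie close to S100A4 and S100A6, so counted and nearly uncounted genes were interspersed there. The 7 S100-fused genes of the epidermal differentiation complex, such as that for filaggrin, summed to at most 5 counts each over the 4 libraries.

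The genes around S100A6 were placed by their annotated positions. Tested genes whose name had no match in the RefSeq table could not be placed and were left out. Distances were taken between the lowest annotated coordinates of genes. Apart from the S100 genes, 20 placed tested genes lay within 1 Mb of S100A6, all at higher coordinates. No placed tested gene other than S100A10 and S100A11 lay within 1664 kb on the other side. The log2 fold changes of these 20 neighbours ran between -1.04 and 0.07, with a median of -0.07, beside 0.00 over all tested genes. Of the 20, 18 were below 0, and nothing is read from that count. Relative to the median of the neighbours S100A6 stood at -4.38 on the log2 scale. For the 10 nearest tested genes on each side the median was -0.04. On the far side of S100A10, THEM4 (-0.14 ± 0.10), TDRKH (-0.02 ± 0.11) and the antizyme gene OAZ3 (0.54 ± 0.40) bounded the group. On the other side followed CHTOP (-0.02 ± 0.07), which encodes a chromatin and mRNA export factor, the SNARE-associated SNAPIN (-0.06 ± 0.09) and ILF2 (-0.11 ± 0.05), a double-stranded RNA binding factor.

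**Figure D2:**
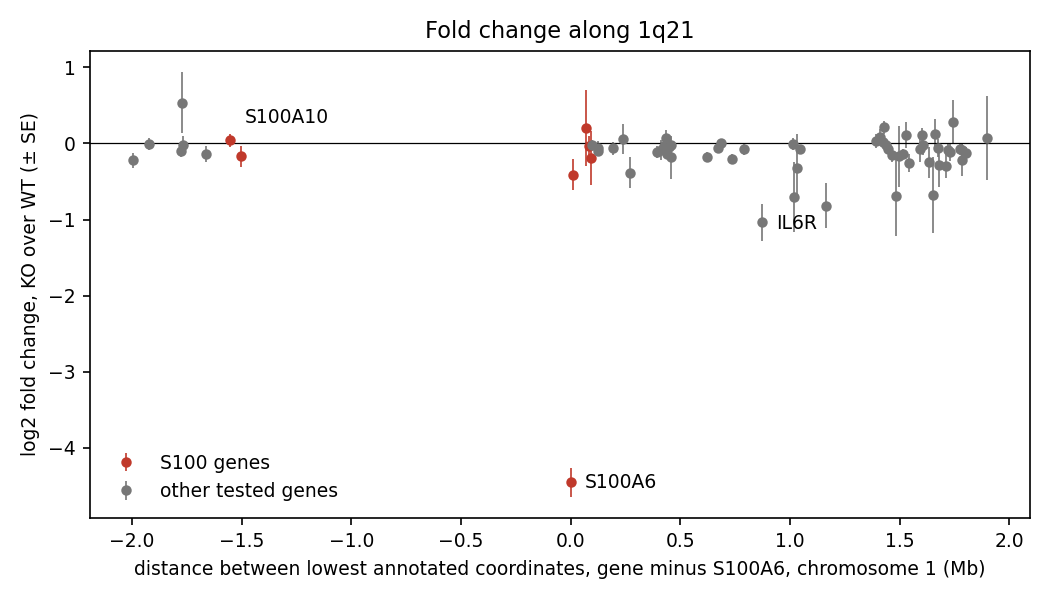
Log2 fold change, knockout over wild type, with its SE, for the placed tested genes within 2 Mb of S100A6. The horizontal axis is the distance in Mb between the lowest annotated coordinates. S100A6 lies at -4.45, and every other gene shown lies above -1.04 or at it.

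Of the 20 neighbours 0 were higher and 3 lower in edgeR, beside 3.06% and 3.5% of all genes, and DESeq2 called 0 in either direction. The neighbours entered the choice of S100A6, so nothing is read from those counts. At 871 kb, IL6R, the receptor gene for interleukin 6, had 2.32 and 1.91 CPM in knockout, against 3.99 and 4.70 CPM in wild type (log2 fold change -1.04 ± 0.24). Tropomyosin gene TPM3 had 404 and 391 CPM in knockout and 451 and 446 CPM in wild type (-0.17 ± 0.06). HAX1, which encodes a mitochondrial protein that protects against cell death, had 160 and 149 CPM in knockout and 173 and 181 CPM in wild type (-0.20 ± 0.06). With 1 library left out, IL6R ran between -1.19 and -0.91 and TPM3 between -0.20 and -0.15. HAX1 ran between -0.25 and -0.15.

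The fitted log2 fold change of S100A6 was among the lowest in the table, with 66 of 16233 genes lower still. Of those 66, 64 averaged under 20 CPM in wild type, and of the 8016 genes at 20 CPM or more 2 were lower still. Since S100A6 was picked for this contrast, its rank is a description. Over the 4 libraries the log2 levels, centred per gene with 0.1 CPM added, were compared by Euclidean distance with those of 9746 genes of at least 10 CPM on average. The nearest to S100A6 was ACTL8 at 0.940, then MYOM1 at 1.18 and LAMA2 at 1.89, on chromosomes 1, 18 and 6. ACTL8 had 2.27 and 2.36 CPM in knockout and 21.4 and 43.7 CPM in wild type. A lower level in knockout was thus fixed by the choice of these 3 genes, so nothing is read from their calls. ACTL8 missed the threshold (edgeR adjusted p = 0.193), while MYOM1 and LAMA2 were past it.

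**Figure D3:**
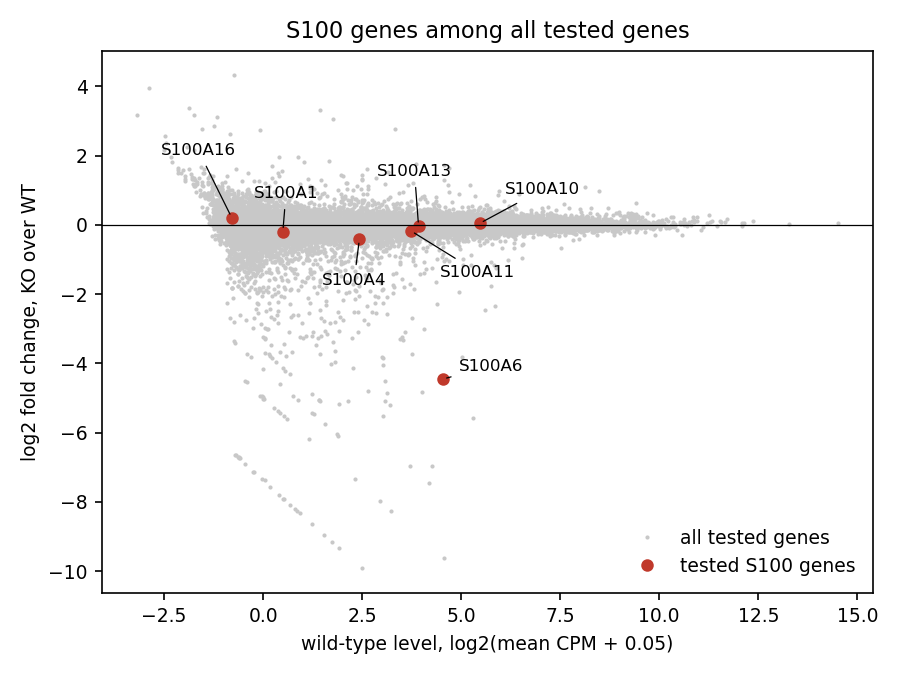
Fitted log2 fold change, knockout over wild type, against the wild-type level as log2 of the mean CPM plus 0.05, for all tested genes in grey and the 7 tested S100 genes in red. S100A6 lies at -4.45, apart from the other 6, which lie between -0.41 and 0.20.

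Binding partners of the S100 proteins changed in a few cases. Of 37 listed partners and receptors 26 were tested, of which 3 were higher and 2 lower in edgeR, beside 3.06% higher and 3.5% lower over all tested genes. Their median log2 fold change was 0.00, equal to that of all genes at 2 decimals. Partners of S100A6 that were fixed by name included CACYBP, with 201.9 CPM in knockout and 223 CPM in wild type (-0.14 ± 0.06, edgeR adjusted p = 0.193). SUGT1, a co-chaperone that also binds S100A6, was at -0.01 ± 0.06 and missed the threshold in edgeR. ANXA2 and ANXA6 were also listed as partners of S100A6, and both were higher in edgeR. The other listed S100A6 partners missed the threshold. Annexin A2, the heavy partner of S100A10, was higher: ANXA2 had 770 and 836 CPM in knockout, against 667 and 625 CPM in wild type (0.31 ± 0.06, edgeR adjusted p = 6.02e-05). AHNAK, the large scaffold bound by the annexin A2 and S100A10 complex, was at 0.07 ± 0.06 and the S100A4 target MYH9 at 0.06 ± 0.06. Both missed the threshold in edgeR.

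PLAT, which encodes the tissue plasminogen activator whose conversion of plasminogen the S100A10 complex promotes, was higher as well. It had 4.97 and 4.73 CPM in knockout, against 2.02 and 2.39 CPM in wild type (1.13 ± 0.23, edgeR adjusted p = 0.000423). Plasminogen itself, PLG, had 0 counts in knockout and 1 in wild type. The cardiac ryanodine receptor gene RYR2, a target of S100A1, was lower, with 3.03 and 2.77 CPM in knockout and 9.04 and 10.2 CPM in wild type (-1.73 ± 0.19, edgeR adjusted p = 7.14e-10). SYT1, a synaptotagmin that joins S100A13 and FGF1 in export, was lower, with 1.18 and 1.41 CPM in knockout and 2.31 and 4.09 CPM in wild type (-1.32 ± 0.29, edgeR adjusted p = 0.00177). With DESeq2 it missed the threshold (adjusted p = 0.0670), as it did in edgeR without wild-type replicate 2 (adjusted p = 0.302). FGF1 itself had 0 counts in knockout and 1 in wild type, and the RAGE gene AGER was at -0.42 ± 0.37 and missed the threshold in edgeR.

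**Figure D4:**
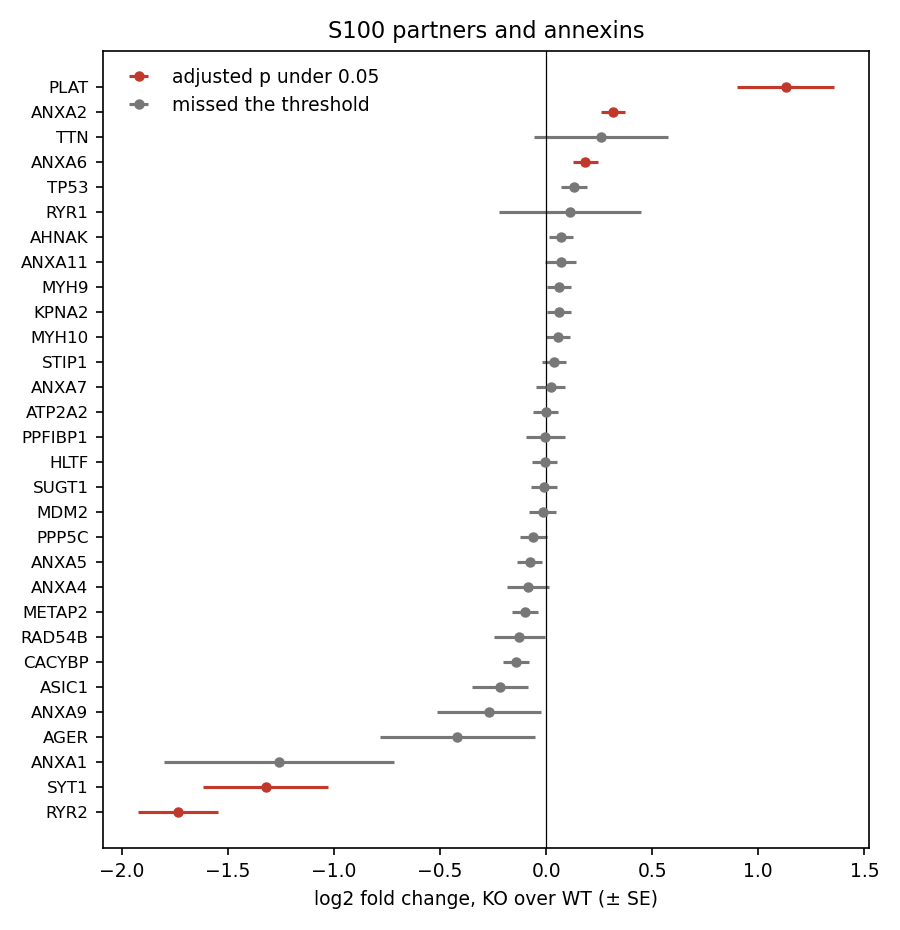
Log2 fold change, knockout over wild type, with its SE, for the tested S100 partners and annexins, ordered by value; red marks an edgeR adjusted p under 0.05. PLAT, at 1.13, is the highest and RYR2, at -1.73, the lowest.

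Annexins are calcium-dependent membrane-binding proteins, several of which dock to S100 dimers. Of 13 annexin genes 8 were tested, with 2 higher, 0 lower and a median log2 fold change of -0.03 in edgeR, beside 3.06% higher and 3.5% lower over all genes. None was lower at an unadjusted p under 0.05 (0 genes) or in DESeq2 (0 genes). ANXA6, which like ANXA2 stands in both lists, had 276 and 272 CPM in knockout, against 239 and 243 CPM in wild type (0.19 ± 0.06, edgeR adjusted p = 0.0433). That call was lost in 8 of the alternatives, among them DESeq2 (adjusted p = 0.113), while that of ANXA2 was kept in all of them. ANXA1, the partner of S100A11, had 33.3 and 15.2 CPM in knockout, against 67.6 and 49.2 CPM in wild type. Its groups did not overlap, but the first knockout library held more than 2 times the level of the second, and it missed the threshold (-1.26 ± 0.54, edgeR adjusted p = 0.493). With the date as a block it passed (-1.31, blocked adjusted p = 1.16e-06 in edgeR). It missed the threshold in DESeq2 (adjusted p = 0.361) and in edgeR under the other scalings and filters. Its log2 fold change was -1.94 without knockout replicate 1 and -0.80 without knockout replicate 2. It was -1.02 without wild-type replicate 1 and -1.47 without wild-type replicate 2.

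Other EF-hand genes were counted to see how the wider calcium-binding class behaved. Of 46 listed genes 33 were tested, with 1 higher, 1 lower and a median log2 fold change of 0.00 in edgeR. Over all tested genes 6.56% were called, a share close to this one. RCN3, a reticulocalbin of the endoplasmic reticulum, was higher, with 28.6 and 27.9 CPM in knockout, against 15.3 and 17.0 CPM in wild type (0.81 ± 0.11, edgeR adjusted p = 1.19e-07). VSNL1, a neuronal calcium sensor, was lower, with 1.28 and 1.41 CPM in knockout and 2.21 and 3.08 CPM in wild type (-0.99 ± 0.29, edgeR adjusted p = 0.0271). With DESeq2 it missed the threshold (adjusted p = 0.321), as it did in edgeR without either knockout replicate (adjusted p of 0.126 and 0.102) and without wild-type replicate 2 (adjusted p = 0.439). The calmodulin genes CALM2 (-0.10 ± 0.06) and CALM3 (0.17 ± 0.06, edgeR adjusted p = 0.0504) missed the threshold. CALM3 passed it in edgeR with the date as a block (blocked adjusted p = 0.00775). Its log2 fold change was 0.22 without knockout replicate 1 and 0.13 without knockout replicate 2. With the block 3 genes of the class were higher and 2 lower, beside 767 higher and 784 lower among all 16233 tested genes.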

How the data were processed

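RNA-seq was read as raw counts per gene symbol, which the authors deposited as 1 file per library with no scaling applied. Libraries were stranded total RNA, per the labels' protocols. Tools listed in the submitters' processing notes are STAR, featureCounts, Subread, SAMtools, cutadapt and FastQC, with the build hg38. Their versions and roles, the annotation and whether strand was used are not stated there. The fit used edgeR 4.0.16 under R 4.3.3: filterByExpr (minimum count 10), TMM scaling, robust quasi-likelihood F test of knockout over wild type on all 16233 genes passing, and Benjamini-Hochberg adjustment over all of them with a threshold of 0.05. On simulated data the unadjusted p-values of unchanged genes were calibrated, but false calls could make up more of the adjusted calls than the threshold states. The standard error is the log2 fold change divided by the square root of F. DESeq2 1.42.0 was an alternative. The members and gene lists were chosen with earlier results of these data known. Genes named beside the members were BCDIN3D, other S100 genes with counts, every called listed gene, a few partners and EF-hand genes fixed by name, and the nearest and called neighbours. Some genes of these lists are not reported here by name. Replicates differed by more than sampling noise (chi-square per degree of freedom 4.37 in knockout and 3.62 in wild type). The titles pair libraries by date. Deviations of same-date libraries correlated at 0.08 across 16233 genes. Positions, and windows of 250 bases before each start, came from RefSeq tables of GRCh38.p14.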

Additional observations from a re-analysis of the deposited data

How the results depend on the processing

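The log2 fold change of S100A6, given as a description, ran between -4.48 and -4.45 over other scalings, filters, tools and the replicate block, and between -4.53 and -4.38 when 1 library was left out. Its distance below the median of its neighbours was -4.39 to -4.38 in the alternatives that kept all libraries, windows of 0.5 and 2 Mb included, and -4.45 to -4.30 otherwise. The number of genes called over the whole table depended more on the choice. DESeq2 gave 255 higher and 331 lower, the replicate block gave 767 higher, and leaving out 1 library gave 240 to 684 higher and 340 to 705 lower, against 497 higher and 568 lower. DESeq2 left 1 partner, 0 other EF-hand genes and 0 neighbours lower, and 1 annexin higher. Annexins higher also numbered 1 with RLE scaling, with scaling by library size alone and without a filter, which also left 1 neighbour lower. Blocking on the date made 1 annexin lower, 3 other EF-hand genes higher and 2 lower, and changed no other call among the genes named. With 1 library left out, the numbers called among partners, annexins, other EF-hand genes and neighbours also moved. MYH9 ran between -0.025, without wild-type replicate 2, and 0.15, without wild-type replicate 1, and missed the threshold in both. A fit without 1 library assumes that the remaining library of its group varies like the others. Depth limits S100A1, S100A2 and S100A16, and 2 libraries a group of 1 clone limit the rest. The cause of these dependences was not tested.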
